A study of Mus musculus with 35 samples.

Results

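Interferon-stimulated genes are the genes that cells switch on when interferon reaches its receptor or when foreign nucleic acid is sensed inside the cell. A fixed list of 34 of them was followed here by symbol, out of 54752 genes in the tables, and all 34 were found. The list holds the IFIT family, Isg15 and its protease Usp18, the OAS family, antiviral GTPases, other effectors, signal transducers, sensors and the chemokine Cxcl10. The libraries came from mouse embryonic fibroblasts isolated at embryonic day 13.5, used at passage 2, from crosses of Oct4-GFP transgenic CBA/CaJ × C57BL/6J males with 129S12/SvJaeJ females. The cells were infected for 48 h with retroviruses carrying reprogramming factors and then kept in iCD3 medium with a Rock inhibitor for up to 7 days.

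The full set of factors, called JEGS, is Jdp2, Esrrb, Glis1 and Sall4, and it was sampled on days 2, 4 and 6 (3 libraries). The other 4 arms each lacked a single factor and were sampled daily from day 0 to day 7 (8 libraries each, 32 in all). They are called here the arm without Glis1, without Sall4, without Esrrb and without Jdp2, and minus_Glis1, minus_Sall4, minus_Esrrb and minus_Jdp2 in the plots. All arms therefore carry retroviral infection, the medium and the inhibitor, and an uninfected or empty-vector group was not analysed here. Each arm has 1 library per day, so the days of an arm stand in for replicates. In comparisons of arms, the p-values therefore reflect library-to-library scatter around a course over days that the arms share. A gap between arms that changes over days adds to that scatter. In tests of slopes, the p-values reflect scatter around the line of each arm. The scatter may be technical.

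In the textbook pathway, type I interferon binds a receptor made of Ifnar1 and Ifnar2, the kinases Jak1 and Tyk2 phosphorylate STAT proteins including Stat2, and these join Irf9 in a complex that binds interferon-stimulated response elements (ISREs) in target promoters. Irf7, itself a target, drives more interferon, while Usp18 dampens the receptor. Sensors such as Ifih1 and Ddx58 detect viral RNA and act upstream through Irf3 and Irf7, and fibroblasts are a classic cell type in which this response was studied.

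Because the response acts in part through the ISRE, the upstream sequences of some members that carry its core are shown. RefSeq promoter windows (build GRCm38.p6, from 250 bases before to 50 bases after the start site) matched 25 of the 34 members by symbol. The element searched was the ISRE core GAAANNGAAA on either strand, which appears as TTTCNNTTTC when it lies on the opposite strand. It was present in 16 of 25 members (64%), in 27 of 55 other interferon-stimulated genes (49.1%) and in 1079 of 27025 genes with a window (3.99%). The members with a window but no core were Ifit2, Oasl1, Oasl2, Ifi44, Ifi35, Irf7, Irf9, Xaf1 and Cmpk2. The interferon-gamma element TTCNNNGAA, which can overlap the first, was present in 6 of 25 members (24%) and in 9.55% of genes. Each line below reads 5′ to 3′ on the gene's own strand and lies upstream of the start site used for its window, with ISRE cores in capitals. For Ifit3 and Ifit3b the annotated gene begins further upstream, at bases 34583119 and 34607530, so their stretches lie inside the annotated gene.
Isg15, chr4:156200860-156200911, minus strand: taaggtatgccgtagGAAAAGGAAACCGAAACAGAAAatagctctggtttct
Ifit1, chr19:34640770-34640828, plus strand: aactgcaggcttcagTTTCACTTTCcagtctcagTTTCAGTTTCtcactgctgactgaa
Ifit3, chr19:34583358-34583431, plus strand: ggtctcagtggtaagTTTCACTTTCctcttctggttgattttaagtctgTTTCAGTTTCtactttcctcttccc
Ifit3b, chr19:34607754-34607827, plus strand: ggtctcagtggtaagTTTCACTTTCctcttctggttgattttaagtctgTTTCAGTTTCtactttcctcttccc
Bst2, chr8:71537572-71537617, minus strand: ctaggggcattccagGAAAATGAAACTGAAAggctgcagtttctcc
Stat2, chr10:128270261-128270300, plus strand: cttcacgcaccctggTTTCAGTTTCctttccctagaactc
Igtp, chr11:58199507-58199546, plus strand: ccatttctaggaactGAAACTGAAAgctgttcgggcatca
Rsad2, chr12:26456548-26456587, minus strand: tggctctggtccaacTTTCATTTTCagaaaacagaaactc
Cxcl10, chr5:92349078-92349117, minus strand: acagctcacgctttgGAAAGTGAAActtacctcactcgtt

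In Isg15, 3 overlapping cores began 78, 72 and 66 bases before the start site, the densest arrangement among the sequences shown. The Ifit3 and Ifit3b stretches were identical in 74 of 74 bases, and their transcripts are close copies too, so the split of reads between them is uncertain. Cxcl10 carries a core 213 bases upstream, although its values went another way from those of the other members, as described below. A match describes letters in a window and does not show that a factor bound there.

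Depth was low and differed between arms: total estimated counts per library ran from 1266379 to 3608456. The arm medians were 1456264 for JEGS, 1586458 without Esrrb, 2066218 without Glis1, 2197907 without Jdp2 and 2652750 without Sall4, and every library without Esrrb was shallower than every library without Glis1. The part of depth in the results was not tested. The left-out factor was low in its own arm, with Glis1 at no more than 8.98 TPM, a length-normalised share of all transcripts, in every library without it. Levels of the delivered factors differed in other ways as well: Jdp2 stood at 1509 to 3420 TPM in the arm without Glis1, higher than in the arm without Esrrb (log2 fold change 1.52 ± 0.23 SE) and without Sall4 (1.04 ± 0.22). Summed over the 4 delivered factors, the median level per library was 10159 TPM without Glis1 and 8657 TPM without Sall4. It was 2912 TPM without Esrrb, 3543 TPM without Jdp2 and 3875 TPM in JEGS. The part of these differences in the results was not tested. All 15 fibroblast markers were detected in every arm. JEGS libraries carry a second-replicate tag in their file names, so a run difference and the full factor set cannot be told apart. In bulk RNA, fewer cells of a kind and less RNA per cell cannot be told apart either.

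In the arm without Glis1 most of the interferon-stimulated genes rose over the days, and their summed level passed that of every other arm from day 2 onwards. Cxcl10 and Ifit2 were the members whose rise did not pass the test. Their summed level was 212, 204, 501, 901, 2772, 2744, 4412 and 4959 TPM on days 0 to 7, that is, from 0.0212% to 0.496% of all transcripts. The median member went from 2.34 TPM on day 0 to 62.2 TPM on day 7. On day 1, 12 of the 34 members had a rounded count of 0 in this arm, and from day 5 on none did. The rise was spread over the list: with Bst2, the most abundant member, removed, the sum still ran from 152 TPM on day 0 to 3207 TPM on day 7.

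Summed levels in the arm without Sall4 rose more gently, with 144, 193, 290, 306, 404, 590, 594 and 597 TPM on days 0 to 7. The arm without Esrrb gave 232, 352, 376, 318, 218, 185, 373 and 331 TPM. The arm without Jdp2 gave 199, 231, 179, 187, 237, 230, 237 and 430 TPM. At the start the 4 arms lay together, and by day 7 the sum without Glis1 was above every other library in the series. JEGS gave 228, 247 and 422 TPM on days 2, 4 and 6, within the range of the arms without Esrrb, Jdp2 and Sall4.

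**Figure D1:**
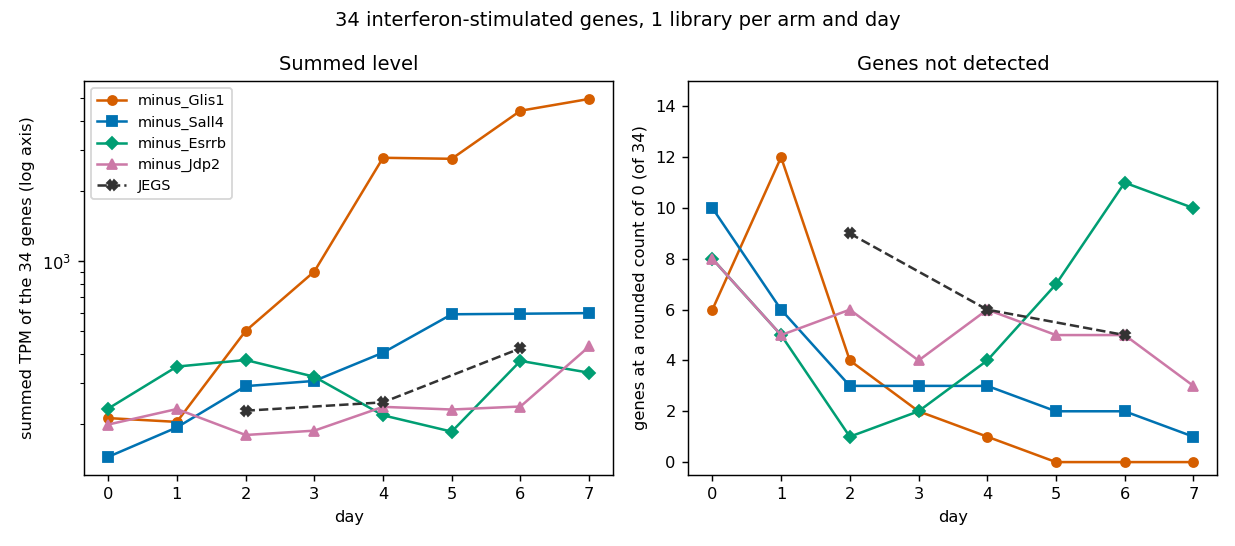
Left, summed TPM of the 34 interferon-stimulated genes (log axis) and right, the number of them at a rounded count of 0, by day (horizontal axes, days 0 to 7), 1 point per library and 1 line per arm. The arm without Glis1 starts among the others, at 212 TPM summed, and ends at 4959 TPM with 0 genes undetected, whereas every library of the other arms stays at or below 597 TPM.

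Averaged over members as log2(TPM + 1), the arm without Glis1 lay above the arm without Esrrb by 1.95 ± 1.94 (SD over 8 days, higher on 6 of 8 days). It lay above the arm without Jdp2 by 2.06 ± 1.61 (7 of 8 days) and above the arm without Sall4 by 1.51 ± 1.18 (7 of 8 days). These SDs are wide because the gap grew with time. Among the 4 leave-out arms, the arm without Glis1 held the highest value for 7, 4, 17, 29, 32, 33, 32 and 33 of the 34 members on days 0 to 7.

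**Figure D2:**
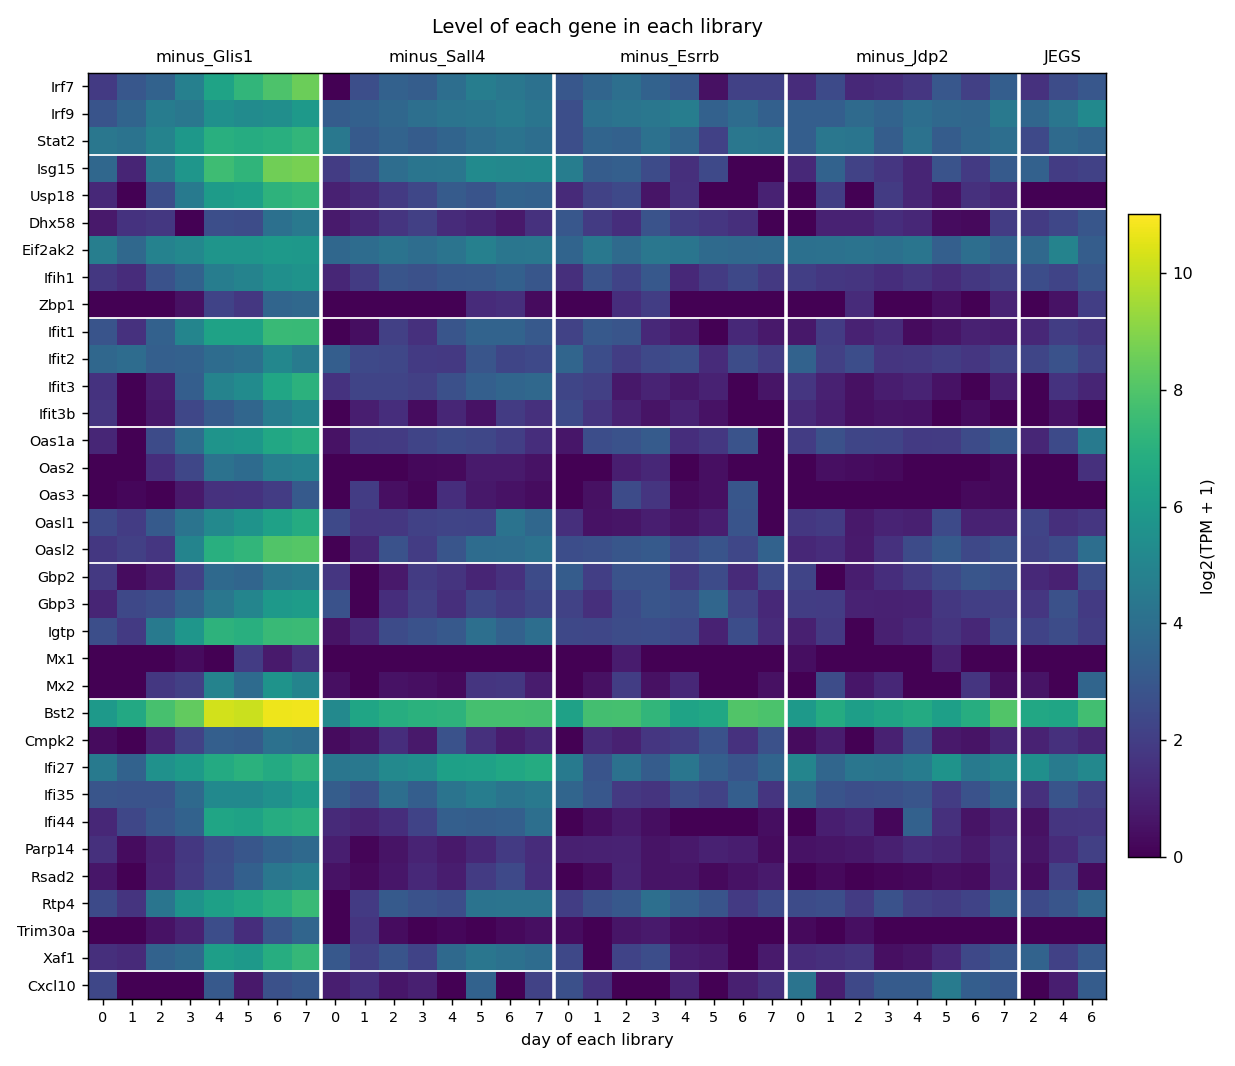
Level of each of the 34 interferon-stimulated genes (rows, grouped by role) in each library (columns, by arm and day), coloured as log2(TPM + 1) on a scale from 0 to 11. The block of high values covers most rows from day 4 to day 7 in the arm without Glis1, while Mx1, Oas3 and Cxcl10 stay low there, at no more than 7.66 TPM.

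The difference between arms was tested gene by gene with edgeR's quasi-likelihood test, with day as a covariate and Benjamini-Hochberg adjustment over 18135 genes. Against the arm without Esrrb, 30 of 34 members were higher without Glis1 and none lower, where 22.8% of all genes tested were called higher. Against the arm without Jdp2 the count was 32 of 34 and none lower, beside 17.3% of all genes. Against the arm without Sall4 it was 31 of 34 and none lower, beside 16.2% of all genes, and 16 by limma on log2(TPM + 0.1). The median log2 fold change over members was 2.90, 3.82 and 2.45 in that order, and over all genes 0.02, 0.00 and 0.03. All 34 members passed the filter on low counts, but Mx1 and Trim30a passed only through the arm without Glis1; Trim30a is in all 3 counts and Mx1 in the last.

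The transducers of the response were among the members that rose. Stat2, a STAT protein of the interferon-activated complex, was at 19.4, 17.1, 29.5, 57.3, 120, 112, 123 and 149 TPM on days 0 to 7 without Glis1. Without Sall4 its lowest, median and highest values were 7.67, 12.5 and 19.97 TPM, without Esrrb 3.34, 10.9 and 19.8 TPM, and without Jdp2 8.11, 13.2 and 19.5 TPM. From day 2 onwards each library without Glis1 lay above every library of these 3 arms. The log2 fold change was 2.84 ± 0.32 against the arm without Esrrb (adjusted p = 4.62e-08), 2.64 ± 0.31 against that without Jdp2 (1.51e-07) and 2.46 ± 0.31 against that without Sall4 (3.88e-07).

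Irf7, the inducible regulator that amplifies interferon production, was at 2.62, 6.99, 9.91, 26.7, 82.3, 151, 244 and 364 TPM on days 0 to 7 without Glis1. Its lowest, median and highest values were 0, 12.3 and 24.3 TPM without Sall4, 0.40, 7.04 and 14.98 TPM without Esrrb, and 1.41, 2.83 and 8.64 TPM without Jdp2. The first 3 days overlapped with the other arms and the last 5 did not. Its log2 fold change was 3.43 ± 0.70 against the arm without Esrrb (adjusted p = 0.000196), 5.25 ± 0.72 without Jdp2 (1.44e-06) and 2.66 ± 0.58 without Sall4 (0.000635). Irf9, the DNA-binding subunit of the same complex, moved less, from 6.26 TPM on day 0 to 58.7 TPM on day 7, with log2 fold changes of 1.26 ± 0.23, 1.32 ± 0.23 and 0.91 ± 0.22 in the same order (adjusted p = 6e-05, 3.39e-05 and 0.00195).

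Isg15 encodes a ubiquitin-like protein that is attached to other proteins during infection. Without Glis1 it was at 11.9, 1.22, 20.03, 54.3, 193, 145, 393 and 424 TPM on days 0 to 7. The lowest, median and highest values were 2.88, 18.8 and 37.9 TPM without Sall4, 0, 4.57 and 24.3 TPM without Esrrb, and 1.17, 3.12 and 10.2 TPM without Jdp2. Day 1 without Glis1 was thus among the low values of the series, and days 3 to 7 were above all libraries of the other 3 arms. The log2 fold changes were 4.09 ± 0.76 (adjusted p = 6.94e-05) against the arm without Esrrb, 4.88 ± 0.75 (8.16e-06) without Jdp2 and 2.44 ± 0.59 (0.00191) without Sall4.

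Usp18 removes Isg15 from proteins and binds the interferon receptor as a feedback inhibitor. It was at 1.39, 0, 5.03, 21.3, 65.2, 72.2, 139 and 157 TPM without Glis1, against at most 10.4 TPM without Sall4, 4.42 TPM without Esrrb and 3.05 TPM without Jdp2. It was listed at 0 in all 3 JEGS libraries. For both Usp18 and Isg15, the arm without Sall4 had the highest median after the arm without Glis1. The Usp18 log2 fold change between these 2 arms was 3.05 ± 0.58 (adjusted p = 0.000145).

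The IFIT proteins bind viral RNA that lacks a host-type cap. Ifit1 was at 6.23, 1.93, 9.64, 31.3, 80.8, 79.7, 176 and 171 TPM without Glis1. Elsewhere its lowest, median and highest values were 0, 4.88 and 10.4 TPM without Sall4, 0, 1.395 and 7.36 TPM without Esrrb, and 0.26, 0.935 and 2.92 TPM without Jdp2. From day 3 no library of the other arms reached those values. The log2 fold changes were 4.28 ± 0.74, 5.67 ± 0.77 and 3.52 ± 0.61 against the arms without Esrrb, Jdp2 and Sall4 (adjusted p = 2.85e-05, 1.22e-06 and 4.53e-05).

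All 4 IFIT genes were higher in each of the 3 comparisons. Ifit3 went from 2.06 TPM on day 0 and 0 on day 1 to 132 TPM on day 7 without Glis1, and in the arm without Sall4 it did not exceed 12.0 TPM. Ifit2 differed in course: it was at 11.9, 13.8, 9.16, 9.63, 13.6, 15.7, 33.5 and 22.8 TPM, with no climb before day 6. Its log2 fold changes of 2.09 ± 0.30, 2.29 ± 0.29 and 1.91 ± 0.28 against the arms without Esrrb, Jdp2 and Sall4 were smaller than those of Ifit1.

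The OAS enzymes make 2′-5′ oligoadenylates that activate the nuclease RNase L, and Oasl1 and Oasl2 are related OAS-like proteins. Of the 5, 4 were higher against the arm without Esrrb and all 5 against the other 2. Oasl2 was at 2.40, 3.29, 2.32, 30.6, 122, 152, 256 and 270 TPM without Glis1, and 16.9 TPM was the highest value in the arm without Sall4. Oas2 was at 0 on days 0 and 1 and reached 28.5 TPM on day 7, with no library of the other leave-out arms above 1.36 TPM. Its log2 fold changes were 5.71 ± 0.70, 6.43 ± 0.71 and 4.93 ± 0.59 against the arms without Esrrb, Jdp2 and Sall4. Oasl1, which also restrains Irf7 translation, had a lowest value of 2.83 and a highest of 107 TPM without Glis1, against at most 17.2 TPM without Sall4, and passed in all 3 (5.44 ± 0.65, 4.34 ± 0.56 and 3.02 ± 0.49). Oas3 was the exception: at 7.66 TPM at most without Glis1 and 6.67 TPM at most without Esrrb, it did not pass the test between those arms (1.25 ± 0.76, adjusted p = 0.19). Oas1a shares sequence with Oas1g, so its reads may be divided between the 2 genes.

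Among the GTPases, Igtp, which guards against intracellular pathogens, was at 5.20, 2.60, 21.7, 54.0, 136, 120, 174 and 182 TPM without Glis1. The highest value elsewhere was 15.2 TPM, without Sall4. From day 2 this gene lay above every library of the other leave-out arms. Its log2 fold changes were 4.34 ± 0.52, 5.71 ± 0.55 and 3.31 ± 0.44 against the arms without Esrrb, Jdp2 and Sall4. Mx2 rose from 0 to a highest value of 49.9 TPM on day 6, and Gbp3 from 1.20 to 65.7 TPM. Gbp2, a related GTPase, reached 23.0 TPM and passed against the arms without Jdp2 (1.55 ± 0.49) and Sall4 (1.99 ± 0.51) but not against that without Esrrb (0.68 ± 0.51, adjusted p = 0.301), where its highest value was 8.30 TPM. Gbp2 and Gbp3 are close relatives, as are Mx1 and Mx2, and shared reads may be divided between them. Mx1 stayed near the limit of detection, at 2.88 TPM or less: its 15 counts without Glis1, against 0 without Sall4, make it at least 6.31-fold higher (floor of 3 counts over the arm). RefSeq annotates Mx1 and Mx2 as transcribed pseudogenes in this build.

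Bst2, or tetherin, holds budding virus particles at the cell surface, and it was the most abundant member. It was at 59.5, 98.8, 219, 329, 1218, 1116, 1702 and 1752 TPM without Glis1, while the other leave-out arms did not exceed 259 TPM. The gap opened between days 2 and 4, and days 3 to 7 did not overlap with any of those libraries. The log2 fold changes were 2.03 ± 0.41, 2.71 ± 0.41 and 2.20 ± 0.39 against the arms without Esrrb, Jdp2 and Sall4 (adjusted p = 0.000198, 7.19e-06 and 7.25e-05).

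All 10 effectors outside the named families were higher against the arms without Esrrb and Jdp2, and 8 of 10 against the arm without Sall4. Ifi44, an interferon-induced protein, was at 1.34, 4.13, 6.99, 9.89, 88.2, 79.0, 110.1 and 127 TPM without Glis1, with a step between days 3 and 4. Its log2 fold change of 7.53 ± 0.64 against the arm without Esrrb, where its median was 0.16 TPM, was the highest of any member. Rsad2, or viperin, which makes a chain-terminating nucleotide, ended at 25.1 TPM, with 4.40 TPM as the highest value without Sall4. Xaf1, a pro-apoptotic protein, went from 1.82 TPM on day 0 to 158 TPM on day 7, and Rtp4, a chaperone of receptor transport, from 4.57 to 170.4 TPM, both above 18.9 TPM from day 4 while no library without Sall4, Esrrb or Jdp2 was. Cmpk2, a mitochondrial nucleotide kinase next to Rsad2 in the genome, reached 16.2 TPM, Parp14, a mono-ADP-ribosyltransferase, 12.5 TPM and Trim30a, a regulator of inflammatory signalling, 10.99 TPM. Cmpk2 and Parp14 passed in all 3 comparisons, with the smallest value at 1.49 ± 0.50 for Cmpk2 against the arm without Esrrb (adjusted p = 0.0163), while Trim30a entered the test only through the arm where it was high. Against the arm without Sall4, the 2 that did not pass were Ifi27 (0.01 ± 0.31, adjusted p = 0.982) and Ifi35 (0.70 ± 0.39, 0.176).

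The 4 sensors were higher in all 3 comparisons. Ifih1, or MDA5, a sensor of long double-stranded RNA, went from 2.44 TPM on day 0 to 49.1 TPM on day 7, with log2 fold changes of 2.66 ± 0.47, 3.20 ± 0.47 and 1.89 ± 0.41 against the arms without Esrrb, Jdp2 and Sall4. Eif2ak2, or PKR, which halts translation on binding double-stranded RNA, went from 24.9 to 57.5 TPM with smaller changes of 1.58 ± 0.25, 1.5 ± 0.24 and 1.24 ± 0.24. Dhx58, or LGP2, a helper of the RNA sensors, and Zbp1, a sensor of Z-form nucleic acid, were low, at 21.0 and 12.3 TPM at most. They passed with log2 fold changes of 1.72 ± 0.66 and 3.53 ± 1.11 against the arm without Esrrb (adjusted p = 0.0372 and 0.013).

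Cxcl10, a chemokine that attracts T cells, behaved otherwise. It was at 4.09, 0, 0, 0, 7.45, 0.70, 5.57 and 7.18 TPM without Glis1 and at 17.8, 0.90, 4.26, 7.83, 7.81, 23.0, 8.85 and 7.20 TPM without Jdp2. The test between these arms gave −1.57 ± 0.63 (adjusted p = 0.0512), so the lone member with a negative estimate there missed the threshold.

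**Figure D3:**
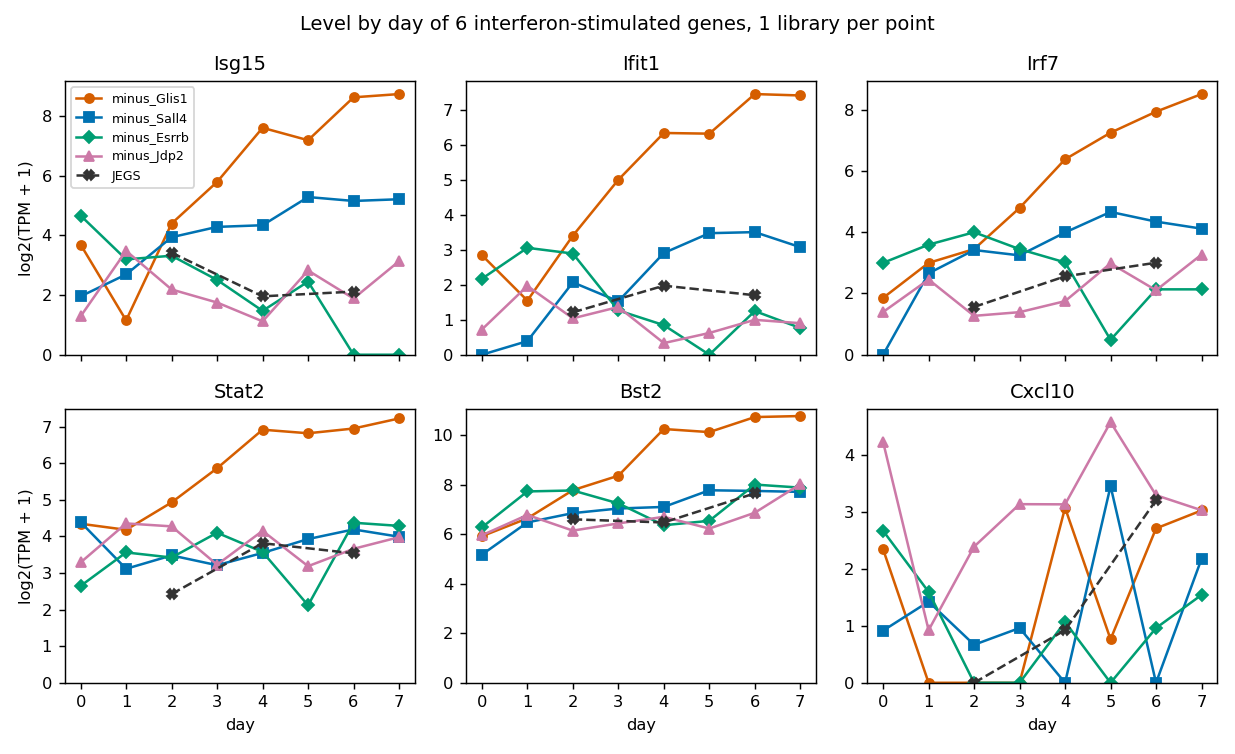
Level, as log2(TPM + 1), of Isg15, Ifit1, Irf7, Stat2, Bst2 and Cxcl10 by day (days 0 to 7) in each arm, 1 point per library and 1 panel per gene. In the first 5 panels the arm without Glis1 separates upwards from day 3, while in the Cxcl10 panel the highest value, 23.0 TPM, belongs to the arm without Jdp2.

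Over all 8 days, no member had its lowest value without Glis1 above all 24 libraries of the other leave-out arms (0 of 33 members with a mean of at least 1 TPM in some arm, beside 0.315% of genes), because days 0 and 1 overlapped. Over days 3 to 7, a window chosen after the values were seen, 18 of 33 members did not overlap, beside 3.14% of genes. Among the leave-out arms, Oas2, Trim30a and Zbp1 reached the mean of 1 TPM only without Glis1. They thus entered the 33 through the arm where they were high, which favours a difference. Oas2 and Trim30a are among the 18 and Zbp1 is not. The 18 were Ifit1, Ifit2, Ifit3b, Isg15, Usp18, Oas1a, Oas2, Oasl1, Oasl2, Mx2, Irf7, Stat2, Ifih1, Bst2, Rtp4, Trim30a, Eif2ak2 and Igtp.

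The course over days was tested as a linear slope of log2 expression within each arm. Without Glis1, 32 of 34 members rose and none fell, beside 3.86% of all genes that rose and 4.01% that fell. Mx1 and Trim30a, both among the 32, entered the slope fits only through the arm without Glis1. The median slope was 0.87 per day (0.01 over all genes). Oasl2 rose by 1.20 ± 0.13 per day (adjusted p = 2.57e-07), Ifit3 by 1.11 ± 0.10 (1.83e-08), Irf7 by 1.08 ± 0.11 (5.93e-08) and Isg15 by 0.92 ± 0.10 (5.25e-07). The members that did not pass were Cxcl10 (0.32 ± 0.20, adjusted p = 0.38) and Ifit2 (0.21 ± 0.07, 0.0705). Set against the mean slope of the other 3 arms, 28 of 34 members were steeper without Glis1 and none less steep, beside 2.07% of genes (18 by limma on log2(TPM + 0.1)). For Ifit3 that difference was 1.27 ± 0.14 per day (adjusted p = 8.91e-07), and for Stat2 it was 0.46 ± 0.08 (0.000393).

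Without Sall4, 17 of 34 members rose, beside 3.73% of all genes, with a median slope of 0.32 per day. Among them were Ifit1 at 0.57 ± 0.14 per day (adjusted p = 0.00776), Isg15 at 0.43 ± 0.11 (0.0153), Irf7 at 0.46 ± 0.11 (0.0101) and Ifi27 at 0.40 ± 0.07 (0.0013). The count was 11 and 7 by limma on log2(TPM + 1) and log2(TPM + 0.1). It also depended on single libraries and days: it was 1 without the day 0 library of the arm without Sall4, 9 without its day 1 library, 7 without day 0 of all arms and 9 without day 6 of all arms. The slope difference from the mean of the other 3 arms passed for 0 of 34 members higher (5 at an unadjusted p under 0.05 in either direction, and 2 higher by DESeq2) and for none lower, beside 0.739% and 1.1% of genes.

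Without Esrrb the trend was downward for part of the list: 6 of 34 members fell and none rose, beside 10.5% of all genes that fell and 8.71% that rose. They were Isg15 (−0.76 ± 0.19 per day, adjusted p = 0.00406), Ifit3b (−0.79 ± 0.20, 0.00517), Ifit1 (−0.55 ± 0.17, 0.0232), Ifit3 (−0.54 ± 0.18, 0.0286), Irf7 (−0.41 ± 0.14, 0.0457) and Ifit2 (−0.24 ± 0.09, 0.0458). The share was nearer to its background than in the arms without Glis1 and Sall4, and the count was 2 without the arm's day 0 library, 3 without its day 1 or day 7 library, 2 without day 0 or day 1 of all arms 3 without day 5 of all arms, and 3 by limma on either scale. The slope was less steep than the mean of the other 3 arms, which includes the arm without Glis1, for 18 members and steeper for none, beside 3.95% and 2.69% of genes. That count was 11 without the day 7 library of the arm without Esrrb and 10 without day 6 of all arms.

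Without Jdp2 a single member rose, Rsad2, at 0.64 ± 0.19 per day (adjusted p = 0.0295), and none fell, beside 5.19% of all genes that rose and 4.49% that fell. The call was lost by limma on either scale, against log2(day + 1), without the day 2 or the day 7 library of that arm and without days 2, 3, 4 or 7 of all arms, and 2 members rose without the day 1 library of the arm without Sall4. Its slopes were not steeper than the mean of the other arms for any member (0 of 34 by edgeR, 12 at an unadjusted p under 0.05 in either direction, beside 0.105% of genes called steeper and 0.0221% less steep).

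**Figure D4:**
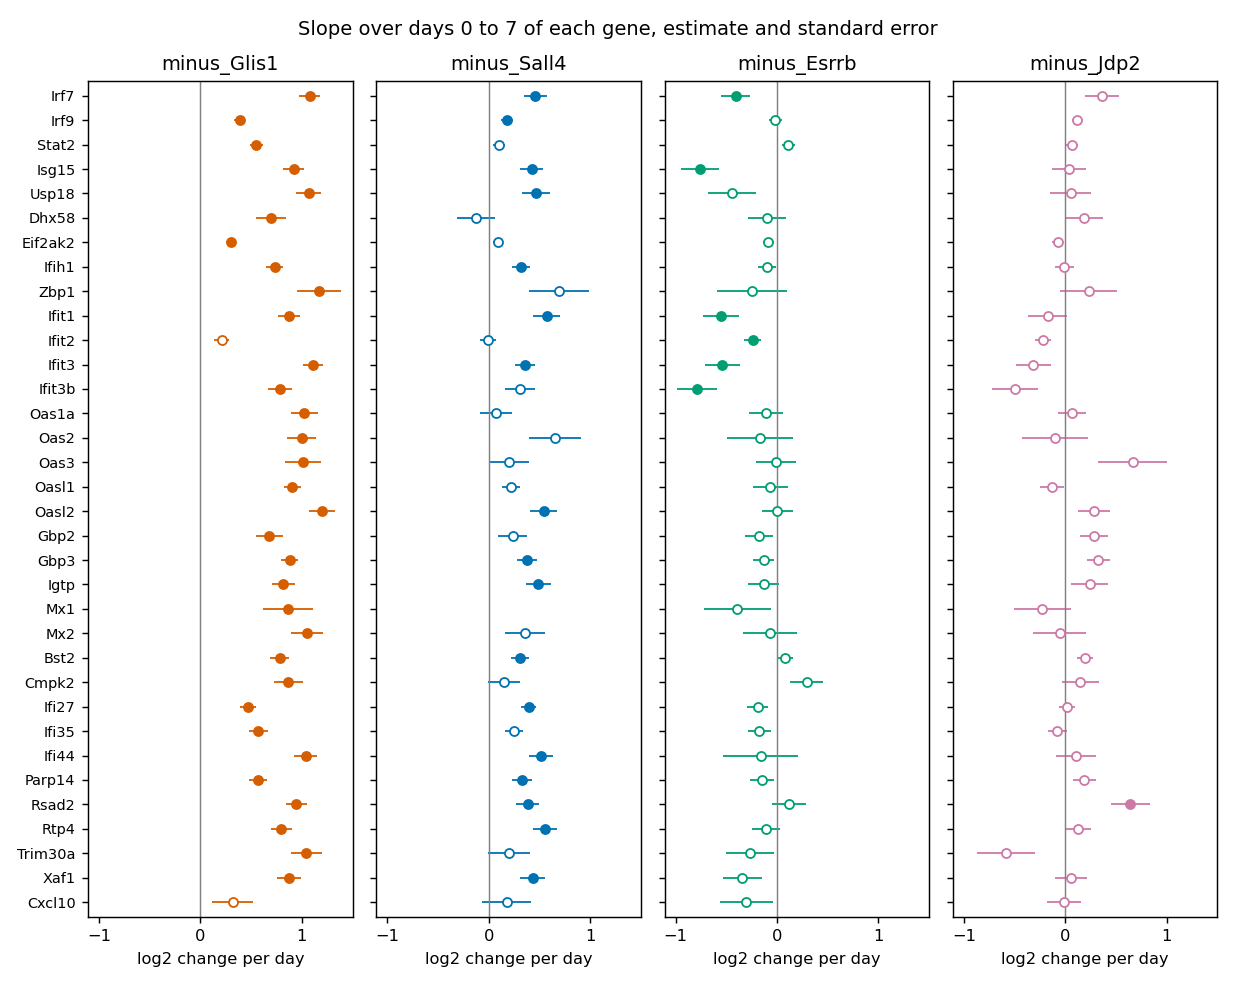
Slope of log2 expression per day, with its SE, for each interferon-stimulated gene in each leave-out arm; filled points have an adjusted p under 0.05 and open points do not. Without Glis1 the slopes run up to 1.20 per day (Oasl2), without Sall4 they are mostly smaller and positive, and without Esrrb Isg15 sits at −0.76; Mx1 without Sall4 is not drawn because all its libraries are at 0.

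Between the remaining leave-out arms the differences were smaller. The arm without Sall4 was higher than that without Esrrb for 7 of 34 members and lower for none, beside 24.8% of all genes called higher and 22.2% lower, so the share was below the background. Over days 3 to 7 alone, however, 17 of 34 were higher, and the share of all genes in that fit is not given here. The 7 called in the fit over all days were Ifi44 (4.91 ± 0.74), Ifi27 (2.45 ± 0.38), Oasl1 (2.42 ± 0.76), Ifit3 (2.23 ± 0.86), Xaf1 (1.87 ± 0.68), Ifi35 (1.63 ± 0.47) and Rsad2 (1.63 ± 0.59). The count of 7 became 4 without the day 5, day 6 or day 7 library of the arm without Esrrb. It was also 4 without the day 5 library of the arm without Sall4, or days 5 or 6 of all arms. Without day 1 of all arms it was 11.

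Against the arm without Jdp2, the arm without Sall4 was higher for 12 of 34 members (17% of all genes) and lower for 1, Cxcl10, at −2.64 ± 0.68 (adjusted p = 0.00315; 18.2% of all genes lower). Those higher included Isg15 at 2.44 ± 0.81 (0.019), Irf7 at 2.58 ± 0.77 (0.0092), Ifi44 at 3.06 ± 0.55 (7.57e-05) and Ifi27 at 1.54 ± 0.34 (0.000664). Ifi27 was at 18.8, 20.4, 35.6, 41.1, 74.3, 76.9, 94.0 and 107 TPM on days 0 to 7 without Sall4, close to the 22.1, 10.1, 46.2, 62.4, 104, 129, 105 and 136 TPM seen without Glis1. Without Jdp2 it was at 11.4 to 48.5 TPM, so from day 4 on the first 2 arms both lay above it. The count of 12 was 20 over days 3 to 7, where the share of all genes in that fit is not given here. It was 3 and 6 by limma on log2(TPM + 1) and log2(TPM + 0.1), and 6 without day 5 of all arms. It was 7 without days 4 or 6 of all arms, or without the day 4, 5 or 6 library of the arm without Jdp2. It was also 7 without the day 5 library of the arm without Sall4. Over days 3 to 7, 5 of 33 members had every value without Sall4 above every value without Esrrb and without Jdp2 (Ifit1, Ifit3, Isg15, Usp18 and Igtp), beside 6.28% of genes.

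The arms without Esrrb and without Jdp2 differed in 2 members. Oas3 was higher without Esrrb by 3.87 ± 1.05 (adjusted p = 0.00837; 8.56% of all genes higher), and Cxcl10 was lower by −2.57 ± 0.71 (0.0092; 13.5% of all genes lower). The count of members higher was 4 by DESeq2 and with no low-count filter, 0 by limma on either scale, 2 over days 3 to 7, 3 without the day 7 library of the arm without Esrrb, and 2 when any of 5 other libraries was taken out (day 6 without Esrrb, days 1 and 6 without Glis1, day 1 without Jdp2 and day 2 without Sall4) or without days 0, 1, 6 or 7 of all arms.

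JEGS was compared with each leave-out arm on days 2, 4 and 6, over 16603 genes and 33 members, as Mx1 did not pass the filter there. With all 4 factors present, the interferon-stimulated genes were far below the arm without Glis1: 29 of 33 were lower and none higher, beside 10% of all genes called lower and 9.86% higher. Isg15 was at 9.67, 2.88 and 3.33 TPM in JEGS on days 2, 4 and 6, where the arm without Glis1 had 20.03, 193 and 393 TPM. Stat2 was at 4.37, 13.1 and 10.6 TPM against 29.5, 120 and 123 TPM. For both genes the highest JEGS value lay below the lowest matched value without Glis1, as it did for 14 of 33 members, beside 12.2% of genes. Trim30a is among the 29 and among the 14, but it passed both filters only through the arm without Glis1.

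The log2 fold change of JEGS against the arm without Glis1 was −5.18 ± 0.85 for Isg15 (adjusted p = 0.000508), −5.20 ± 0.77 for Ifit1 (0.000228), −4.92 ± 0.82 for Irf7 (0.00061), −3.34 ± 0.33 for Stat2 (7.7e-06), −3.08 ± 0.47 for Bst2 (0.000271) and −4.80 ± 0.48 for Igtp (7.7e-06). The members' median was −3.34, or −3.25 with the 3 genes at 0 in JEGS set at their bounds, beside −0.01 for all genes. Those 3 bounds put Usp18 at least 139-fold, Trim30a at least 13.5-fold and Oas3 at least 9.30-fold higher without Glis1 (floor of 3 counts over the 3 JEGS libraries). Cxcl10, Dhx58, Gbp2 and Zbp1 did not pass. The count was 16 without day 4 of all arms, and 18 and 17 by limma on log2(TPM + 1) and log2(TPM + 0.1).

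Against the arms without Esrrb and without Jdp2, JEGS gave no member past the threshold in either direction by edgeR (2 and 1 members at an unadjusted p under 0.05), where 4.04% and 0.819% of genes were called higher and 2.6% and 2% lower. Leaving out the day 2 library of the arm without Glis1 gave 1 member higher against the arm without Jdp2, and applying no low-count filter gave 2. Against the arm without Sall4, 4 of 33 were lower (Usp18, Ifi27, Ifi35 and Ifi44), beside 11.9% of genes. Ifi27 was at 43.4, 22.6 and 33.9 TPM in JEGS and 35.6, 74.3 and 94.0 TPM without Sall4, a log2 fold change of −1.38 ± 0.41 (adjusted p = 0.0237). That count was 13 with no low-count filter, 2 by limma on either scale, 0 without day 4 of all arms, 1 without the day 4 or the day 6 JEGS library, and 2 without the day 4 or day 6 library of the arm without Sall4 or day 6 of all arms. It was 8 without the day 2 library of the arm without Esrrb, 10 without day 2 of all arms and 13 without the day 2 library of the arm without Glis1.

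The earliest change was examined as day 1 against day 0 over the 4 leave-out arms, where 27 members were tested. Bst2 was higher on day 1 by 1.07 ± 0.22 (adjusted p = 0.00794; 5.93% of genes higher), and Gbp2, a guanylate-binding GTPase, was lower by −2.90 ± 0.80 (0.0357; 6% of genes lower). The other members tested did not pass.

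Interferon transcripts themselves were almost undetected. Of 21 interferon genes, 14 had no count in any of the 35 libraries, which together hold 73360848 counts, so each could reach 0.0409 CPM (counts scaled to library size; 3 counts of the total) unseen. The 7 with any count were Ifnb1, Ifna5, Ifna13, Ifna16, Ifnab, Ifne and Ifnz, and the arm without Glis1 had 5 counts over 3 of them, Ifnb1, Ifna5 and Ifnz. Ifnb1, the interferon that fibroblasts make, gave 2 counts on day 6 and 1 on day 7 there (3 in all, 95% exact Poisson interval 0.619 to 8.77, which covers counting error only). Its total over 8 libraries was 16813153. The arm without Sall4 had 10 interferon counts in 21211278, that without Esrrb 3 in 12330292, that without Jdp2 5 in 18601096 and JEGS 5 in 4405029. These counts were not compared between arms by a test.

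The rest of the pathway was read against the shares of all genes, 22.8%, 17.3% and 16.2% higher and 20.4%, 17.9% and 15.9% lower without Glis1 than without Esrrb, Jdp2 and Sall4. Of 6 receptor genes, 2, 1 and 1 were higher and 1, 1 and 0 lower, which is near those shares. Ifnar1 was lower than without Esrrb (−0.48 ± 0.16, adjusted p = 0.0167) and without Jdp2 (−0.81 ± 0.16, 0.000194), and Ifnar2 passed in none of the 3. Ifnlr1, the receptor for type III interferon, was higher in all 3 (2.28, 2.45 and 3.04) but at 3.11 TPM or less.

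Of 13 JAK-STAT genes, 4, 4 and 3 were higher and 4, 2 and 1 lower in those comparisons. Jak1 was higher in all 3 comparisons (1.27, 1.02 and 0.53) with a slope of 0.00 per day. Ptpn6, a phosphatase, was lower than without Esrrb and Jdp2 (−1.01 ± 0.34 and −1.45 ± 0.32) and higher than without Sall4 (1.83 ± 0.41), and Socs3, a feedback inhibitor, was higher than without Jdp2 (1.46 ± 0.28).

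Of 18 sensing genes and adaptors tested, 8, 7 and 6 were higher and 3, 1 and 2 lower. Ddx58, or RIG-I, a sensor of uncapped RNA, went from 30.2 to 137 TPM between days 0 and 7 without Glis1, with log2 fold changes of 2.98 ± 0.30, 2.54 ± 0.29 and 1.34 ± 0.27. Tlr3, an endosomal sensor of double-stranded RNA, was at 2.10, 8.50, 29.5, 35.7, 36.2, 27.7, 28.9 and 43.7 TPM and lay above all other leave-out libraries from day 2. Mavs, the adaptor of the RNA sensors, was higher than without Esrrb and Jdp2 (1.48 ± 0.15 and 1.16 ± 0.14) and gave 0.18 ± 0.14 against the arm without Sall4. On the DNA side, Tmem173, or STING, was lower than without Sall4 (−1.68 ± 0.26), Aim2 was lower than without Esrrb (−2.40 ± 0.76) and Mb21d1, or cGAS, passed in none of the 3.

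Of 8 other interferon regulatory factors, not counting Irf3, which was listed with the sensing genes and adaptors, 3, 2 and 1 were higher and 1, 0 and 0 lower. Irf8, known from blood cells, went from 0 on day 0 to 17.4 TPM on day 7 without Glis1 (4.90 ± 0.57, 3.56 ± 0.47 and 1.12 ± 0.39). Irf4 was higher than without Esrrb and Jdp2 (3.11 ± 0.63 and 3.29 ± 0.61) but gave 0.06 ± 0.43 against the arm without Sall4. Irf3, the constitutive activator, had lowest, median and highest values of 44.6, 51.4 and 70.5 TPM and passed in 1 of the 3 (0.40 ± 0.12 against the arm without Jdp2, adjusted p = 0.0121). Irf8 and Irf4 thus had larger estimates than Irf3 against the arms without Esrrb and Jdp2.

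**Figure D5:**
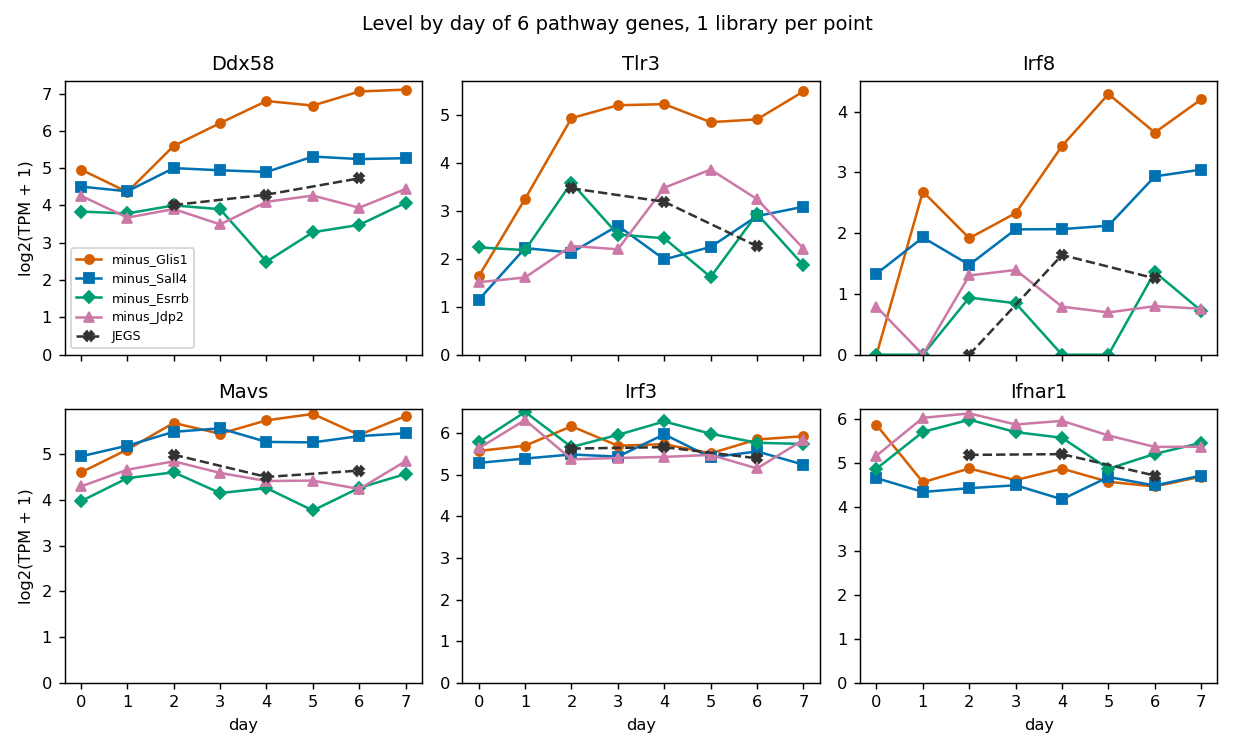
Level, as log2(TPM + 1), of 6 pathway genes outside the list, Ddx58, Tlr3, Irf8, Mavs, Irf3 and Ifnar1, by day (days 0 to 7) in each arm, 1 point per library. Ddx58 (to 137 TPM) and Tlr3 (to 43.7 TPM) separate upwards in the arm without Glis1, while the Irf3 and Ifnar1 points of the arms lie closer together.

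A second set of interferon-stimulated genes outside the list, 64 of them tested, moved the same way. Of these, 48, 52 and 45 were higher without Glis1 than without Esrrb, Jdp2 and Sall4, 2, 1 and 0 were lower, and 50 rose over days. Apol9b gave 3.89 ± 0.76, 5.09 ± 0.80 and 1.97 ± 0.60 in these comparisons. Oas1g, an OAS enzyme, gave 4.23 ± 0.84, 4.84 ± 0.82 and 4.27 ± 0.75. Ddx60, an RNA helicase, gave 2.99 ± 0.84, 4.48 ± 0.90 and 3.09 ± 0.78. Iigp1, an immunity-related GTPase, gave 3.58 ± 0.68, 5.05 ± 0.72 and 1.11 ± 0.50, the last not past the threshold (adjusted p = 0.0899). Ifi205 had 57 counts without Glis1 and 0 without Esrrb, at least 13.9-fold higher. In JEGS, 37 of 59 were lower than without Glis1 and 1 was higher.

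Markers of macrophages and other blood cells, which respond strongly to interferon, were low throughout. Over 20 such genes the summed level per library was 46.6 to 108 TPM without Glis1, 45.5 to 120 TPM without Sall4, 39.3 to 87.6 TPM without Esrrb, 43.7 to 157 TPM without Jdp2 and 31.0 to 36.5 TPM in JEGS. Ptprc, the pan-leukocyte marker CD45, was at 0 in 5 of 8 libraries without Glis1 and never above 0.43 TPM, and Hbb-bs was at 0 in all 8. None of 16 tested rose over days without Glis1, and 5, 3 and 1 were higher and 1, 1 and 3 lower than without Esrrb, Jdp2 and Sall4. Csf1r, the macrophage growth factor receptor, was higher without Glis1 than without Esrrb (2.80 ± 0.55) and Jdp2 (2.92 ± 0.52) at 4.47 TPM or less, and Laptm5 was lower than in all 3 arms (−3.17 ± 0.31 against that without Esrrb). The highest estimate in this list against the arm without Esrrb was 3.89, for a gene not named here. Against the arms without Esrrb, Jdp2 and Sall4 in that order, 4, 6 and 2 of 15 fibroblast markers were higher and 3, 5 and 8 lower. Pdgfra, a receptor of mesenchymal cells, had the lowest estimate of the 15 in each (−1.62 ± 0.35, −2.01 ± 0.35 and −1.81 ± 0.35). The highest estimates among the 15 were 1.62, 1.58 and 1.16. Of 10 endothelial markers 1, 1 and 1 were higher and 5, 6 and 2 lower, and of 12 pluripotency genes 1, 2 and 3 were higher and 4, 6 and 1 lower. The pluripotency list includes the delivered factors Esrrb and Sall4, so the call of each against the arm lacking it was fixed by the design. The only pluripotency gene higher than without Esrrb was Esrrb itself. Fibroblast markers fell over days without Glis1 (11 of 15), without Sall4 (9 of 15), without Esrrb (10 of 15) and without Jdp2 (10 of 15), where 4.01%, 5.57%, 10.5% and 4.49% of all genes fell. The part of these markers in the results was not tested.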

How the data were processed

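RNA from 35 libraries was sequenced and quantified by the authors. Per the submitters' processing notes, bcl2fastq, Bowtie2, RSEM and the mm10 genome were used. Versions are not given in the sources used here. The tables give RSEM expected counts (estimated counts, unnormalized) and TPM, both as deposited by the authors. RSEM divides reads shared by near-identical genes, which makes the split between paralogs uncertain. Arms were taken from sample titles, because the treatment label names all 4 factors for every sample, and the level of each left-out factor followed the titles. Ensembl identifiers were matched to symbols for 54723 of 54752 genes, and 102 identifiers share a symbol.

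Expected counts were rounded and genes with at least 1 CPM in at least 3 libraries were kept. Arms were compared with edgeR 4.0.16 (R 4.3.3, TMM, quasi-likelihood test, day as factor, Benjamini-Hochberg adjustment over all genes tested). JEGS was compared on days 2, 4 and 6, and slopes were fitted against day within each arm. Significance means an adjusted p under 0.05. Alternatives were DESeq2 1.42.0, limma 3.58.1 on log2(TPM + 1) or log2(TPM + 0.1), RLE size factors, no low-count filter, no day term, days 3 to 7, log2(day + 1), and leaving out each library or day. The fits were tested on simulated data. Tables used Python 3.11.15, pandas 2.3.3 and numpy 2.4.6, and plots matplotlib 3.10.9.

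The members and lists were chosen with earlier results of these data known. The text accounts for every member of the list and, from each pathway or marker list, names at most 5 genes by size of change, plus genes that define the pathway. Endothelial and pluripotency lists are given as counts only. Fold changes of genes at 0 in a whole group are given as bounds. Total counts per library bound the precision at about 1 count in 1266379 to 3608456. Results that rest on 2 genes of these lists are not reported here.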

Additional observations from a re-analysis of the deposited data

Results flagged for a closer look

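Within each leave-out arm, the libraries were checked for a single value far from the rest, over 63 pairs of member and arm with a mean of at least 5 TPM and over 8 checks of the list's level. This gave 4 such values, where chance gives about 1 in 20 checks, so about as many as chance gives. On day 7 the arm without Jdp2 had a summed member level of 429.5 TPM and a mean log2(TPM + 1) of 2.17, both above its other 7 days. Bst2 was at 8.02 on the log2(TPM + 1) scale in that same library. The flags of this library are not independent, because Bst2 is part of the sum and of the mean. Without Bst2 the sum in this arm was 171 TPM on day 7 and 156 TPM on day 5. Irf7 was at 0 in the day 0 library without Sall4.

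The slope over days differed between arms by the test of the difference itself. For 28 members it was steeper without Glis1 than the mean of the other 3 arms, and for 18 members it was less steep without Esrrb. The second set of slopes is set against a mean that includes the arm without Glis1.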

How the results depend on the processing

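Of 10939 recalculations of single members' calls under all alternatives, 10269 kept direction and side of the threshold, 670 kept direction but missed it and 0 reversed. The counts of members higher without Glis1 than without Esrrb and Jdp2, and rising without Glis1, stayed within 1.5 times under every alternative run. The cause of the following changes was not tested. With limma on log2(TPM + 1) and log2(TPM + 0.1) in that order, counts became 3 and 6 for the arm without Sall4 above that without Jdp2, 0 and 0 for that without Esrrb above that without Jdp2, 18 and 17 for JEGS below the arm without Glis1, 2 and 2 for JEGS below the arm without Sall4, 3 and 3 falling without Esrrb, 0 and 0 rising without Jdp2, and 11 and 7 rising without Sall4. With log2(TPM + 0.1) alone, 16 were higher without Glis1 than without Sall4 and 18 steeper without Glis1. Shares of all genes called in the fit of days 3 to 7 are not given here. In that window the arm without Sall4 was higher for 17 members against that without Esrrb and 20 against that without Jdp2. The arm without Esrrb was higher there for 2 against that without Jdp2. The latter was 4 with DESeq2 and 4 without the low-count filter. Without that filter, JEGS was higher for 2 against the arm without Jdp2 and lower for 13 against that without Sall4. Against log2(day + 1), 0 rose without Jdp2 and 1 was steeper without Sall4 (2 with DESeq2).

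Leaving out 1 library or day, the arm without Glis1 was higher for 26 to 31 (Esrrb left out), 31 to 33 (Jdp2) and 26 to 31 (Sall4) members. The arm without Sall4 was higher for 4 to 11 and 6 to 15 against those without Esrrb and Jdp2, and that without Esrrb for 1 to 3 against that without Jdp2. JEGS was higher for 0 to 0 and 0 to 1 against the arms without Esrrb and Jdp2, and lower for 16 to 30 and 0 to 13 against those without Glis1 and Sall4. Slopes passed for 31 to 33 members without Glis1, 1 to 18 without Sall4, 2 to 6 without Esrrb (falling) and 0 to 2 without Jdp2. Slope differences passed for 20 to 29 without Glis1, 10 to 19 without Esrrb, 0 to 0 without Jdp2 and 0 to 1 without Sall4. Day 1 against day 0 gave 1 to 1. No paired analysis was possible because the labels carry no replicate numbers; arms were matched by day only, through the day term of the fit. Depth limits Mx1, Oas3, Zbp1 and the interferon genes, which rest on few counts.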

Other observations

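Among interferon-stimulated genes outside the list, 2 names chosen after their values were seen went against the rest. Ifitm1, a membrane protein that blocks virus entry, was lower without Glis1 than without Esrrb (−1.85 ± 0.35 on the log2 scale, adjusted p = 9.48e-05, edgeR) and without Jdp2 (−2.92 ± 0.35, 1.84e-07), and gave 0.24 ± 0.38 (0.681) against the arm without Sall4. Mov10, an RNA helicase, was lower than without Esrrb (−0.93 ± 0.21, 0.00058) and gave −0.46 ± 0.21 (0.0852) and −0.11 ± 0.21 (0.74) against the arms without Jdp2 and Sall4.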
